A study of Acipenser schrenckii with 6 samples.

Results

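Nuclear receptors for lipids, steroids, retinoids and thyroid hormone were examined in the gut of Amur sturgeon (Acipenser schrenckii), a fish whose lineage went through a genome duplication. The loci were taken from the deposited expression table by product name: nuclear receptor subfamily members other than subfamily 1 group D and subfamily 4, peroxisome proliferator-activated receptors, retinoic acid receptors, the bile acid, oxysterol, vitamin D3, thyroid hormone, glucocorticoid, mineralocorticoid and estrogen receptors, hepatocyte nuclear factor 4 and COUP transcription factors. This gave 82 of the 82023 features in the table. By their names 74 are nuclear receptors, and the other 8 are proteins whose name contains that of a receptor (G-protein coupled bile acid and estrogen receptors, a retinoic acid receptor responder, a growth regulator that binds estrogen receptor and a thyroid hormone receptor-associated protein). The fish shared a similar genetic background and lived in net cages until their release into a river. For 30 days 1 group received commercial feed and the other received fresh Limnodrilus, a tubificid worm that had been raised in the water used for the fish. Gut was then collected, and there were 3 libraries of each diet. The sources used here do not give the age of the fish. The labels leave unstated if 1 fish or several went into a library and if libraries are separate fish, so that p-values reflect only how these samples vary, which may be technical.

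Nuclear receptors are transcription factors that bind small lipophilic molecules and switch genes on or off accordingly. Retinoid X receptors (RXR) form heterodimers with many of the others, among them the receptors for thyroid hormone (TR), all-trans retinoic acid (RAR), vitamin D (VDR), bile acids (FXR), oxysterols (LXR) and fatty acids (PPAR). Steroid receptors such as the glucocorticoid receptor (GR) bind DNA mainly as homodimers and wait in the cytoplasm in complexes with chaperones, while hepatocyte nuclear factor 4 (HNF4) and NR5A2 hold epithelial and digestive gene programmes active. In the vertebrate gut these factors govern the uptake of fat, the recycling of bile acids, calcium transport and the renewal of the epithelium. These roles are best known from mammals.

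Expression is given as FPKM, the number of sequenced fragments per kilobase of the gene, scaled to the total of the library, as the authors deposited it. Values joined by "against" are those of commercial feed libraries 1 to 3, then those of Limnodrilus libraries 1 to 3. Recovered library totals were 9.95 to 10.49 M reads or fragments with commercial feed and 13.9 to 19.7 M with Limnodrilus, so depth and diet differed together. Smooth muscle markers and enterocyte markers, which define the labelled tissue, were present in all 6 libraries but in different proportions. The summed level of 17 enterocyte marker loci was 69.9, 314 and 3197 FPKM in commercial feed libraries 1 to 3 and 1846, 9160.03 and 3672 in Limnodrilus libraries 1 to 3. The summed level of 24 smooth muscle marker loci was 8336, 5181 and 667 FPKM across the commercial feed libraries and 3409, 2400.2 and 2484 in the Limnodrilus libraries. Muscle markers were therefore high and enterocyte markers low in commercial feed libraries 1 and 2, with library 3 at the opposite end. The leukocyte list of 23 loci summed to 10.9 to 136 FPKM with commercial feed, highest in library 3, and to 27.1 to 67.3 with Limnodrilus, and the pancreatic acinar list of 32 loci to 68.3 to 3189 and 591 to 1088. Commercial feed libraries 1, 2 and 3 had hepatocyte list sums (15 loci) of 9.08, 48.5 and 47.3 FPKM. The Limnodrilus sums, in library order, were 101, 15.3 and 19.1 FPKM, so the diets overlapped. The albumin locus LOC117408315 of this list had no reads with commercial feed. It stood at 32.1, 0.761 and 1.24 FPKM in Limnodrilus libraries 1 to 3. The list sums of libraries 2 and 3 lay the other way, higher with commercial feed.

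The summed receptor level varied more among the commercial feed libraries than between the diets. The summed level of the 74 receptor loci was 188, 398 and 1149 FPKM in commercial feed libraries 1, 2 and 3 and 600.1, 637 and 631 FPKM in the Limnodrilus libraries. The total of library 3 was thus above all others, those of libraries 1 and 2 were below all others, and the Limnodrilus totals lay close together between them. The loci of NR0B2, described below, held 3.09, 58.2 and 492 FPKM of the commercial feed totals and 195, 238 and 155 FPKM of the Limnodrilus totals. HNF4 loci held 29.2, 83.8 and 311 FPKM with commercial feed and 120, 141 and 168 FPKM with Limnodrilus. Of the 82 loci, 56 averaged 1 FPKM or more across all libraries and were tested, 54 of them receptors by name. The other 26 were below that level, and 4 of these were at 0 in every library.

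With Limnodrilus 2 of the 56 tested loci were higher and 0 were lower at an adjusted p under 0.05, in a limma fit to log2(FPKM + 1) across all 23644 features that reached the same level. They were an RXR alpha locus and a TR alpha locus. That is 3.57% of the loci, where 17.7% of all tested features passed, 14.0% higher and 3.64% lower. Unadjusted, 13 of the 56 loci had a p under 0.05 (23.2%, against 34.3% of all tested features), and limma-voom on recovered reads also called 2 higher and 0 lower (11.3% and 3.24% of all features). The 3 libraries of 1 diet lay above the 3 of the other for 19 of the 56 loci (33.9%, with Limnodrilus above for 13 and commercial feed above for 6), where this held for 39.9% of all tested features (28.4% with Limnodrilus above and 11.5% with commercial feed above). The median log2 fold change of the 56 loci, Limnodrilus minus commercial feed, was 0.47, and that of all tested features was 0.24. The median of all features moved to 0.01 when the libraries were scaled by the median of ratios. Lower receptor levels can come from fewer cells of a type or from less RNA per cell, which cannot be told apart in whole tissue.

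**Figure D1:**
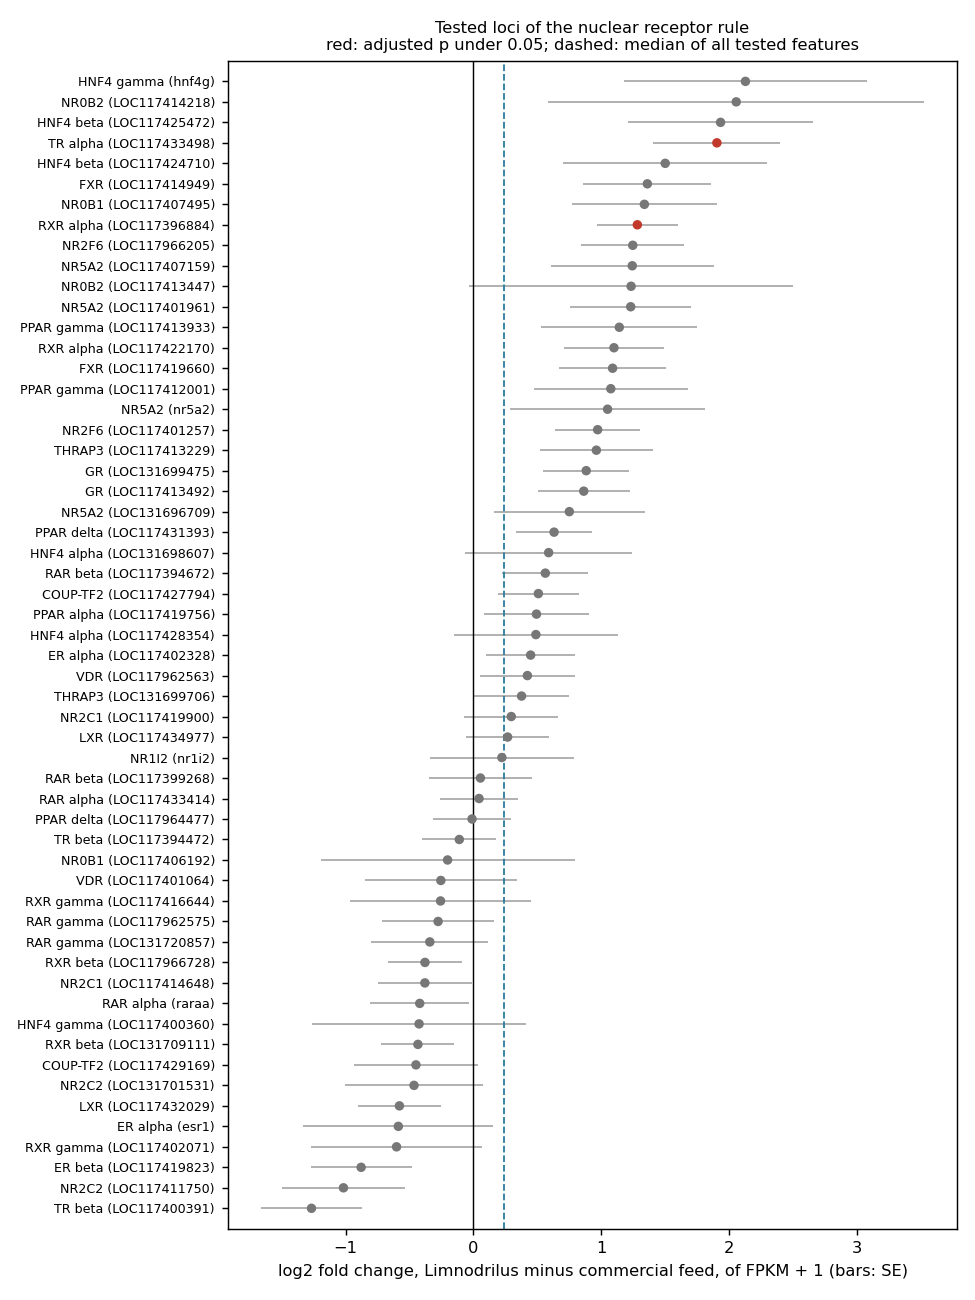
Log2 fold change (Limnodrilus minus commercial feed, on log2(FPKM + 1), with SE bars) of the 56 tested loci, each labelled with its receptor type and locus. The RXR alpha locus LOC117396884 and the TR alpha locus LOC117433498 are the 2 that passed the adjusted threshold.

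RXR alpha, the common partner of the lipid receptors, passed as higher with Limnodrilus at 1 of its 2 loci. A difference between the 2 loci was not tested. RXR alpha LOC117396884 (NC_081219.1, 10599408 to 10710083; positions are as the deposited table gives them, whose assembly is not given in the sources used here) was at 3.18, 4.34 and 3.79 FPKM in commercial feed libraries 1 to 3 and at 10.4, 8.13 and 13.9 FPKM in Limnodrilus libraries 1 to 3. All 3 Limnodrilus libraries were above all 3 commercial feed libraries, and the commercial feed libraries were close to each other. Marker levels differed between the libraries, as given above, and their part in the RXR alpha values was not tested. The means were 3.77 ± 0.581 and 10.8 ± 2.88 FPKM (SD, n = 3), and the log2 fold change was 1.28 ± 0.317 (SE; adjusted p from limma = 0.0326). The fit rested on 146 to 192 reads per commercial feed library and 640 to 1050 reads per Limnodrilus library. The direction held in every alternative run, with log2 fold changes of 1.01 to 1.49. The call was kept in 10 of 18 alternatives, with adjusted p from 0.0292 to 0.137, and was lost when any 1 library other than commercial feed library 3 was left out.

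The other RXR alpha locus, LOC117422170 (NC_081203.1, 4967279 to 5084141), was the more abundant copy, at 4.37, 7.86 and 9.36 FPKM with commercial feed and 17.5, 11.02 and 20.9 FPKM with Limnodrilus. Its groups did not overlap either, but it did not pass, with a log2 fold change of 1.10 ± 0.393 (SE; adjusted p = 0.0916). The 2 copies have the same product name, and how multiply matching reads were handled is not given, so reads could be split between near-identical loci here and in the pairs below. With both summed, RXR alpha had a log2 fold change of 1.23 and did not pass (adjusted p = 0.0584).

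The RXR beta pair lay the other way. RXR beta LOC131709111 was at 7.205, 5.73 and 5.01 FPKM across the commercial feed libraries and 3.88, 4.24 and 4.25 in the Limnodrilus libraries, for a log2 fold change of -0.43 ± 0.286 (SE; adjusted p = 0.323). RXR beta LOC117966728 was at 5.87, 5.22 and 5.19 against 4.71, 3.03 and 4.23 FPKM (log2 fold change -0.38 ± 0.291; adjusted p = 0.396). In both, every commercial feed library was above every Limnodrilus library, and neither passed the test. RXR gamma followed the commercial feed libraries instead: LOC117416644 was at 3.57, 9.85 and 38.4 FPKM there and at 8.86, 8.83 and 10.8 in the Limnodrilus libraries, and LOC117402071 at 1.27, 6.496 and 14.7 against 2.01, 3.95 and 4.11 FPKM. For both RXR gamma loci commercial feed library 3 was the highest of the 6 and library 1 the lowest.

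The makeup of the RXR family therefore differed between the libraries of the diets, in a measure that does not depend on how libraries are scaled. RXR alpha made up 29.7, 30.9 and 17.2% of the summed RXR FPKM in commercial feed libraries 1 to 3 and 58.9, 48.8 and 59.8% in the Limnodrilus libraries. The Limnodrilus shares were all above the commercial feed shares (means 25.9 ± 7.56% and 55.8 ± 6.06%, SD, n = 3). The shares of RXR beta and RXR gamma overlapped between diets. The summed RXR level also overlapped, at 25.5, 39.5 and 76.4 FPKM with commercial feed and 47.3, 39.2 and 58.1 FPKM with Limnodrilus.

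TR alpha, a receptor for the thyroid hormone that drives remodelling of the gut at metamorphosis in amphibians, was the other receptor that passed as higher. TR alpha LOC117433498 (NC_081221.1, 229831 to 247768) was at 0.7499, 0.852 and 0.627 FPKM across the commercial feed libraries and at 4.71, 12.8 and 2.51 FPKM in Limnodrilus libraries 1 to 3. The commercial feed libraries were uniformly low, at 45 to 58 reads each, and the Limnodrilus libraries were all higher but differed widely, with library 2 highest at 1728 reads. The means were 0.743 ± 0.113 and 6.69 ± 5.44 FPKM (SD, n = 3), and the log2 fold change was 1.91 ± 0.497 (SE; adjusted p from limma = 0.0381). The commercial feed mean was under the 1 FPKM of the filter, so the locus was tested only because of its Limnodrilus values. Without Limnodrilus library 2 the Limnodrilus mean was 3.61 FPKM. The call was kept in 7 of 17 alternatives and lost without each of the 6 libraries in turn, without filter, and under median-of-ratios and quantile scaling, with adjusted p from 0.0299 to 0.131 over all of them, and the log2 fold change stayed between 1.36 and 2.85.

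The other TR alpha locus, LOC117434764, was under the level for testing. It had 0, 0 and 4 reads in commercial feed libraries 1 to 3 and 16, 32 and 14 in Limnodrilus libraries 1 to 3, so its Limnodrilus libraries were also all above, at few reads. With both loci summed, TR alpha had a log2 fold change of 1.97 ± 0.494 (SE) and passed (adjusted p from limma = 0.0372), as the only one of 31 receptor and related products, each summed over its loci, that did. The summed mean was 0.801 FPKM with commercial feed, so the sum too reached the level for testing only through Limnodrilus. Among all entries summed in that way 11.5% were higher and 3.45% lower. The other 30 products had log2 fold changes from -0.97 for estrogen receptor beta to 1.98 for NR0B2.

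TR beta, the other thyroid hormone receptor, gave no call at either locus. TR beta LOC117400391 (NC_081192.1, 81113881 to 81128514) was at 2.499, 7.88 and 6.23 FPKM with commercial feed and 1.604, 1.47 and 1.5005 FPKM with Limnodrilus. The Limnodrilus libraries were nearly equal and lay below every commercial feed library. The log2 fold change was -1.27 ± 0.397 (SE), which did not pass (adjusted p = 0.0639) but did under median-of-ratios scaling (adjusted p = 0.0349), quantile scaling (0.0272), without commercial feed library 1 (0.0231) and without commercial feed libraries 1 and 2 (0.0371). The other TR beta locus, LOC117394472, was at 2.68, 4.03 and 3.05 against 3.27, 3.02 and 2.46 FPKM, and its groups overlapped.

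TR alpha made up 12.6, 6.68 and 7.94% of the summed TR FPKM in commercial feed libraries 1 to 3 and 51.8, 75.1 and 42.1% in the Limnodrilus libraries. The diets did not overlap in this share (means 9.09 ± 3.15% and 56.4 ± 16.97%, SD, n = 3), so TR beta was the main form in each commercial feed library and TR alpha in Limnodrilus libraries 1 and 2. The total TR level overlapped, at 5.93, 12.8 and 10.1 FPKM with commercial feed and 10.1, 18.1 and 6.85 FPKM with Limnodrilus.

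**Figure D2:**
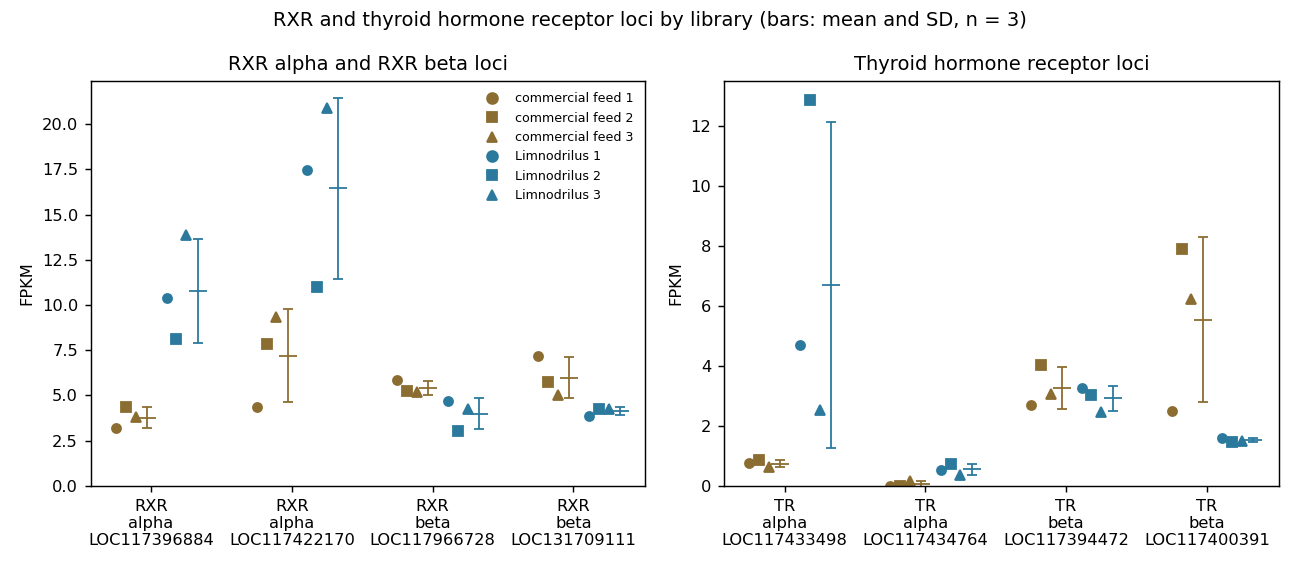
FPKM of the RXR alpha and RXR beta loci (left) and the TR alpha and TR beta loci (right) in each of the 6 libraries, with the mean and SD of the 3 libraries per diet beside them. The Limnodrilus points lie above the commercial feed points for RXR alpha and TR alpha and below them for both RXR beta loci and TR beta LOC117400391.

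**Figure D3:**
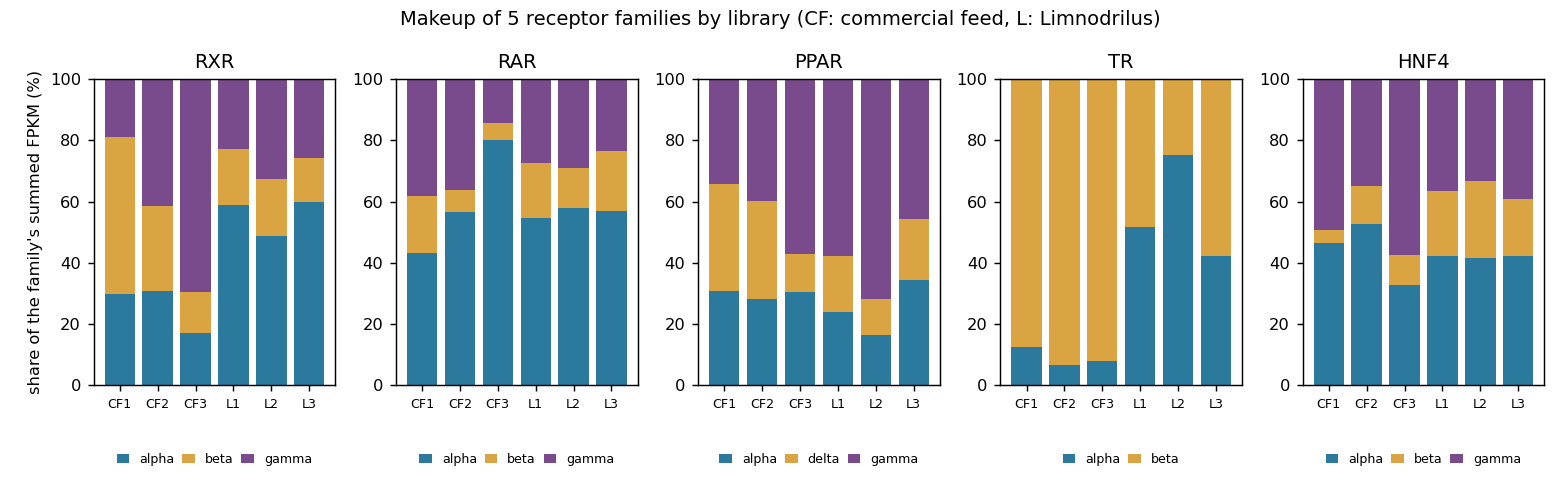
Share of each form in the summed FPKM of its receptor family (percent, stacked to 100) in commercial feed (CF) and Limnodrilus (L) libraries 1 to 3, for RXR, RAR, PPAR, TR and HNF4. TR alpha stands at 6.68 to 12.6% with commercial feed and 42.1 to 75.1% with Limnodrilus, and RXR alpha at 17.2 to 30.9% and 48.8 to 59.8%.

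Several of these loci are neighbours on the genome. Among the 74 receptor loci 7 pairs of different type lay within 1 Mb of each other on the same sequence. They included both TR alpha loci beside an RAR alpha locus, at gaps of 77.2 and 118 kb, and both TR beta loci beside an RAR beta locus, at gaps of 298 and 128 kb. The RAR alpha locus 77.2 kb from the called TR alpha LOC117433498, LOC117433414, was at 1.53, 2.97 and 2.67 against 2.21, 2.37 and 2.73 FPKM, with a log2 fold change of 0.04 ± 0.307 (SE; adjusted p = 0.937). The difference between the neighbours was not tested.

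FXR, which senses bile acids in ileum and liver, did not pass at either tested locus. FXR LOC117419660 (NC_081202.1, 24826106 to 24853521) was at 3.83, 4.88 and 6.26 FPKM with commercial feed and 18.1, 6.39 and 13.1 FPKM with Limnodrilus. Every Limnodrilus library was above every commercial feed library, library 2 by little, and the log2 fold change of 1.09 ± 0.418 (SE) did not pass (adjusted p = 0.110). FXR LOC117414949 was at 0.233, 1.55 and 2.07 against 6.36, 2.01 and 6.39 FPKM, with commercial feed library 1 at 5 reads (log2 fold change 1.36 ± 0.502; adjusted p = 0.0993). Its groups overlapped between commercial feed library 3 and Limnodrilus library 2. The other two FXR loci stayed under the level for testing.

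LXR alpha, the oxysterol receptor that controls cholesterol export, did not pass at either locus. LXR alpha LOC117432029 was at 9.11, 13.95 and 15.6 FPKM with commercial feed against 8.702, 7.09 and 8.58 with Limnodrilus, so the commercial feed libraries were above, with no passing test (log2 fold change -0.58 ± 0.325; adjusted p = 0.251). LXR alpha LOC117434977 was at 8.44, 4.45 and 7.31 against 8.36, 7.69 and 8.17 FPKM, and its groups overlapped. The xenobiotic sensor NR1I2, known as PXR in mammals, was low, at 0.509, 0.6403 and 4.33 FPKM with commercial feed and 0.918, 3.38 and 1.495 FPKM with Limnodrilus, and the diets overlapped.

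NR0B2, a receptor without a DNA-binding domain that FXR induces in mammals and that represses other receptors, held the most abundant locus of the whole set. NR0B2 LOC117414218 (NC_081213.1, 5623250 to 5625306) was at 2.34, 45.02 and 389.9 FPKM in commercial feed libraries 1, 2 and 3 and at 161, 206 and 128 FPKM in the Limnodrilus libraries. The commercial feed libraries thus ran from far below to far above the Limnodrilus libraries, and the log2 fold change of 2.06 ± 1.47 (SE) did not pass (adjusted p = 0.362). NR0B2 LOC117413447 had the same order, at 0.707, 13.2 and 102 against 34.2, 32.6 and 26.6 FPKM. Both passed as higher when commercial feed library 3 was left out (log2 fold changes 3.72 and 2.70), and LOC117413447 passed as lower when commercial feed libraries 1 and 2 were left out (-1.69). The direction of a difference between diets therefore depended on which commercial feed libraries were used. The other two NR0B2 loci had at most 4 reads in any library.

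NR0B1, a relative of NR0B2 known as a repressor of steroidogenic factors, was at 1.66, 11.6 and 38.2 FPKM with commercial feed and 12.3, 2.67 and 16.6 FPKM with Limnodrilus at LOC117406192, and at 0.604, 1.92 and 4.89 against 8.397, 3.24 and 10.2 FPKM at LOC117407495. Commercial feed library 1 was the lowest of the 6 at both. NR5A2, a partner of FXR signalling that supports bile acid and pancreatic enzyme genes and crypt renewal in mammals, had 4 tested loci. The most abundant, nr5a2, was at 0.799, 4.25 and 14.1 FPKM with commercial feed and 12.1, 4.95 and 15.3 FPKM with Limnodrilus, and commercial feed library 1 was the lowest of the 6 for all 4. Only LOC117401961 of these had groups that did not overlap, at 0.388, 1.66 and 3.02 against 3.02, 7.43 and 4.66 FPKM (log2 fold change 1.23 ± 0.473; adjusted p = 0.111), with library 3 of commercial feed and library 1 of Limnodrilus nearly equal.

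PPARs, the receptors for fatty acids, gave no call at any locus. The shares of PPAR alpha, delta and gamma in the summed PPAR FPKM all overlapped between diets. PPAR gamma, the regulator of fat storage, was at 1.96, 4.49 and 10.8 FPKM with commercial feed and 10.03, 23.3 and 6.72 FPKM with Limnodrilus at LOC117413933 (log2 fold change 1.14 ± 0.612; adjusted p = 0.231). The other PPAR gamma locus, LOC117412001, gave 1.49, 3.25 and 8.32 against 7.701, 17.7 and 4.68 FPKM. In both copies commercial feed library 1 was lowest and Limnodrilus library 2 highest, and Limnodrilus library 3 lay below commercial feed library 3. PPAR alpha LOC117419756, which drives fatty acid oxidation, was at 3.098, 5.47 and 10.2 against 7.35, 9.404 and 8.58 FPKM, with overlap. PPAR delta LOC117431393 was at 0.9502, 1.58 and 1.18 FPKM with commercial feed against 2.4002, 3.002 and 2.002 with Limnodrilus, all Limnodrilus libraries above (log2 fold change 0.63 ± 0.297; adjusted p = 0.177). The more abundant PPAR delta locus, LOC117964477, had a log2 fold change of -0.01 ± 0.305 (SE), so the 2 copies differed in pattern, a difference that was not tested.

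HNF4 factors, regulators of enterocyte and hepatocyte differentiation, were among the most abundant loci. HNF4 gamma LOC117400360 (NC_081192.1, 23877739 to 23912467) was at 13.1, 28.3 and 153 FPKM with commercial feed and 30.8, 17.1 and 44.7 FPKM with Limnodrilus. HNF4 alpha LOC131698607 was at 7.54, 23.7 and 56.9 against 29.6, 31.4 and 40.9 FPKM, and HNF4 alpha LOC117428354 at 6.005, 20.4 and 44.6 against 20.9, 26.97 and 29.8 FPKM. In these 3 loci commercial feed library 3 was the highest of the 6 libraries and library 1 the lowest, as for the enterocyte marker sums within the commercial feed diet. The goblet cell, enteroendocrine, leukocyte and pancreatic acinar marker sums also rose from commercial feed library 1 to 3. The smooth muscle and fibroblast sums fell in that order, and the hepatocyte and erythroid sums were highest in commercial feed library 2. The part of any of these markers in the HNF4 values was not tested.

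HNF4 beta and the other HNF4 gamma locus were lower in commercial feed libraries 1 and 2 than in any Limnodrilus library. HNF4 beta LOC117424710 was at 1.25, 10.2 and 24.6 FPKM with commercial feed and 20.2, 27.8 and 23.02 FPKM with Limnodrilus, and HNF4 beta LOC117425472 had 0, 4 and 123 reads with commercial feed and 133, 277 and 256 with Limnodrilus. HNF4 gamma hnf4g was at 1.26, 0.934 and 25.4 against 13.3, 29.8 and 21.003 FPKM, with commercial feed library 3 inside the range of the Limnodrilus libraries. None of the 3 passed with all libraries (adjusted p = 0.229, 0.104 and 0.159), and all 3 passed as higher without commercial feed library 3. As a share of the summed HNF4 FPKM, HNF4 beta was at 4.29, 12.4 and 9.99% with commercial feed and 21.2, 25.2 and 18.6% with Limnodrilus, which did not overlap, while the shares of HNF4 alpha and HNF4 gamma did.

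**Figure D4:**
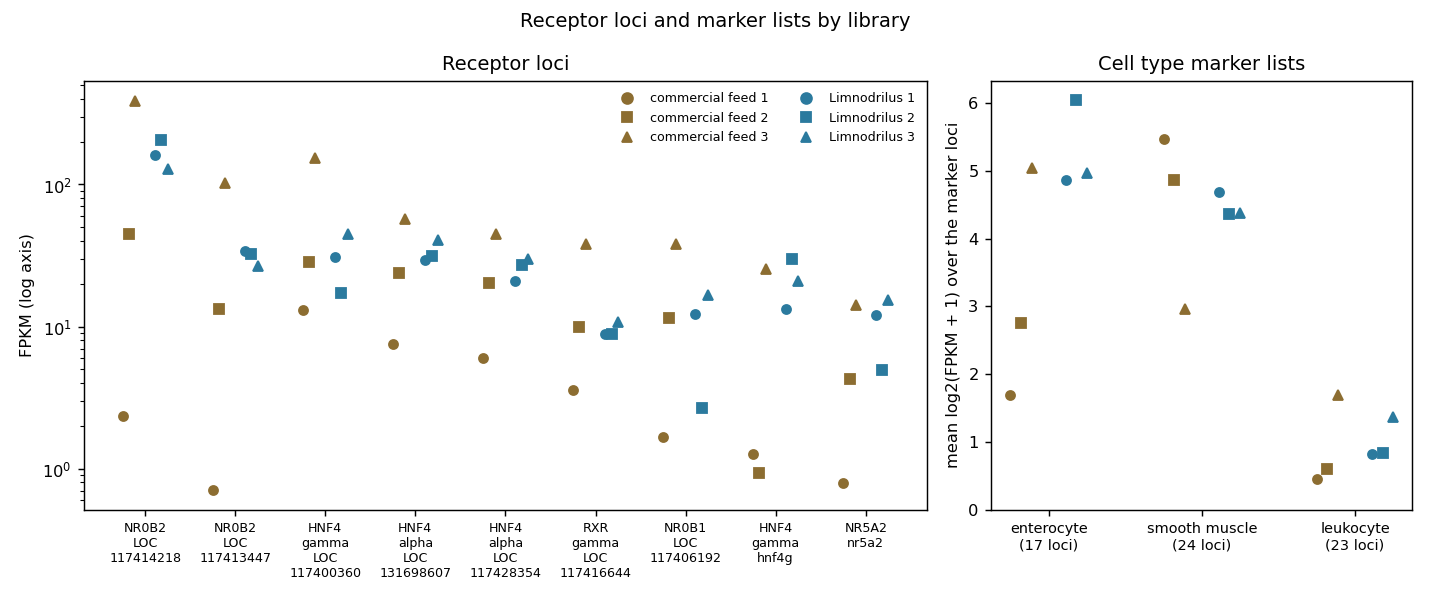
Left, FPKM on a log axis of 9 receptor loci in each library, picked because they varied among the commercial feed libraries. Right, mean log2(FPKM + 1) of the enterocyte, smooth muscle and leukocyte marker lists in the same libraries. The panel does not show how common this spread is, as some loci of like abundance were left out. For NR0B2 LOC117414218 commercial feed libraries 1 and 3 stand at 2.34 and 390 FPKM.

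The commercial feed libraries were widely spread, over the receptors as over all tested features. Commercial feed library 3 was the highest of that diet for 36 of the 56 tested loci (64.3%, against 49.2% of all tested features), and library 1 the lowest for 37 (66.1% against 48.5%). The median range within a diet was 1.39 log2 units for commercial feed and 0.70 for Limnodrilus, where all tested features had 1.05 and 0.60. The commercial feed range was the wider one for 44 of the 56 loci (78.6%) and for 74.6% of all tested features. Leaving out 1 library moved a diet mean by over 1.5 times in 30 cases at 27 loci, and in 22 of the 30 that library was commercial feed library 3. Without it 11 of the 56 loci were higher (19.6%) and 0 lower, against 20.7% and 5.97% of all tested features. Without commercial feed libraries 1 and 2, which leaves 1 library of that diet whose spread is assumed to be like that of the others, 0 were higher and 7 lower (12.5%), against 8.38% and 8.12% of all tested features.

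Retinoic acid receptors and the vitamin D receptor gave no call. RAR alpha raraa, the most abundant of the RARs, was at 7.39, 17.6 and 12.99 FPKM with commercial feed and 8.56, 6.97 and 10.9 FPKM with Limnodrilus, with overlapping groups. RAR beta LOC117399268 was at 2.64, 1.38 and 0.534 against 1.596, 0.919 and 1.99 FPKM and RAR gamma LOC117962575 at 4.28, 6.23 and 1.38 against 2.54, 2.73 and 2.88 FPKM. The other RAR beta locus, LOC117394672, was at 1.16, 1.1832 and 0.584 against 1.98, 1.1845 and 2.71 FPKM. Its Limnodrilus libraries were all above, library 2 barely (log2 fold change 0.56 ± 0.336; adjusted p = 0.278). Its commercial feed mean was 0.977 FPKM, under the 1 FPKM of the filter, so it was tested only because of its Limnodrilus values. Unlike the HNF4 loci, both RAR beta and both RAR gamma loci were lowest of all in commercial feed library 3. VDR LOC117401064 was at 1.06, 5.14 and 9.71 FPKM with commercial feed and 2.36, 4.84 and 3.07 FPKM with Limnodrilus, and the other VDR locus, LOC117962563, at 0.951, 2.37 and 2.79 against 2.34, 4.18 and 2.48 FPKM, both with overlap.

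Among steroid receptors both GR loci were higher in every Limnodrilus library without passing the test. GR LOC117413492 (NC_081211.1, 25649193 to 25709507) was at 2.82, 4.76 and 5.78 FPKM with commercial feed and 7.51, 12.1 and 7.06 FPKM with Limnodrilus, for a log2 fold change of 0.86 ± 0.362 (SE; adjusted p = 0.136). GR LOC131699475 was at 2.904, 2.95 and 4.08 against 5.68, 10.2 and 5.55 FPKM, a log2 fold change of 0.88 ± 0.337 (SE; adjusted p = 0.108). Limnodrilus library 2 was the highest at both loci. The mineralocorticoid receptor loci were under the level for testing, the most abundant, LOC117421141, at 1.02, 0.855 and 1.49 FPKM with commercial feed against 0.656, 1.42 and 0.346 with Limnodrilus.

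Estrogen receptor beta LOC117419823 was at 0.606, 1.53 and 2.84 FPKM with commercial feed and 0.157, 0.533 and 0.415 FPKM with Limnodrilus, every commercial feed library being above (log2 fold change -0.88 ± 0.395; adjusted p = 0.161). Its Limnodrilus mean was 0.368 FPKM, under the 1 FPKM of the filter, so the locus was tested only because of its commercial feed values. Estrogen receptor alpha esr1 was at 3.66, 1.05 and 16.8 against 4.504, 1.59 and 2.51 FPKM, with 1 high value in commercial feed library 3. Its log2 fold change was -0.59 ± 0.744 (SE). The other estrogen receptor alpha locus, LOC117402328, lay the other way, at 1.41, 0.297 and 0.846 against 1.76, 1.61 and 1.03 FPKM (log2 fold change 0.45 ± 0.349). Both loci overlapped between diets and neither passed. Without commercial feed libraries 1 and 2 the log2 fold changes were -1.499 for estrogen receptor beta LOC117419823 and -2.27 for esr1.

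Orphan receptors gave no call, and differences between their types or copies were not tested. NR2F6, a COUP family member, was higher in every Limnodrilus library at both loci: LOC117966205 was at 3.81, 3.89 and 6.77 FPKM with commercial feed and 13.2, 7.72 and 18.7 FPKM with Limnodrilus (log2 fold change 1.25 ± 0.404; adjusted p = 0.0703). NR2F6 LOC117401257 was at 0.905, 1.196 and 1.64 against 3.42, 2.26 and 4.801 FPKM (log2 fold change 0.97 ± 0.334; adjusted p = 0.0827). Limnodrilus libraries 1 and 3 were above library 2 at both, as at both RXR alpha loci, a likeness that was not tested. NR2C2, a testicular receptor, lay the other way at LOC117411750, at 14.05, 31.96 and 11.2 FPKM with commercial feed and 10.4, 4.68 and 10.3 FPKM with Limnodrilus (log2 fold change -1.02 ± 0.485; adjusted p = 0.183). The other NR2C2 locus, LOC131701531, overlapped between diets, at 9.52, 15.8 and 4.25 against 9.45, 2.99 and 7.44 FPKM (-0.47 ± 0.539; adjusted p = 0.577). NR2C1 LOC117414648 (10.5, 8.93 and 12.3 against 9.63, 4.74 and 10.4 FPKM) and COUP-TF2 LOC117429169 (4.73, 8.301 and 1.88 against 3.42, 1.67 and 4.11 FPKM) overlapped between diets. The other NR2C1 locus, LOC117419900, also overlapped, with a log2 fold change of 0.30 ± 0.368 (SE), where LOC117414648 had -0.38 ± 0.368. The other COUP-TF2 locus, LOC117427794, was at 1.06, 1.37 and 0.788 against 1.58, 1.56 and 2.81 FPKM. All its Limnodrilus libraries were above, without passing (log2 fold change 0.51 ± 0.318; adjusted p = 0.299). The 9 loci of NR2E1, NR2F1, NR2F5 and NR6A1 were all under the level for testing, the highest being NR6A1 LOC117422123 at up to 1.499 FPKM in a library.

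Of the 8 loci that are not nuclear receptors only the 2 for thyroid hormone receptor-associated protein 3, a splicing and transcription cofactor, were abundant enough to test. LOC117413229 was at 10.7, 5.81 and 19.9 FPKM with commercial feed and 21.9, 20.8 and 23.6 FPKM with Limnodrilus, all Limnodrilus libraries above (log2 fold change 0.96 ± 0.442; adjusted p = 0.169). The locus for retinoic acid receptor responder protein 2, the precursor of the chemokine chemerin, had 66 reads in Limnodrilus library 1 and 0 to 3 in the other 5 libraries. The summed hepatocyte list was also highest in Limnodrilus library 1, at 101 FPKM. In commercial feed libraries 2 and 3 that list summed to 48.5 and 47.3 FPKM, and the locus had 3 and 0 reads. A link between the locus and the list was not tested.

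Genes that work with the receptors were examined by lists of cofactors, ligand enzymes, chaperones and known targets, chosen with earlier results of these data known. Loci of the receptor rule were left out of the lists, so NR0B2 is not counted among FXR targets nor RAR beta among RAR targets. Over the 10 lists 173 of 228 loci were tested, and 38 were higher and 4 lower with Limnodrilus, or 24.3% against 17.7% of all tested features. Their median log2 fold change was 0.76, where that of all tested features was 0.24. Many of these genes, such as the intestinal fatty acid-binding protein, are themselves enterocyte genes. The 16 tested enterocyte marker loci had a median log2 fold change of 2.36, with 3 higher (18.75%) and 0 lower. The 19 tested smooth muscle marker loci had a median of -0.08, with 0 called. The part that the enterocyte marker levels play in the counts of the 10 lists was not tested.

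Chaperones of steroid receptors gave 7 higher (53.8%) and 0 lower of 13 tested loci, against 14.0% and 3.64% of all tested features, and their median log2 fold change was 2.14 (0.24 for all tested features). The co-chaperone p23, listed as prostaglandin E synthase 3, was at 8.78, 8.62 and 7.99 FPKM with commercial feed and 68.8, 115 and 90.4 FPKM with Limnodrilus at LOC117401102 (log2 fold change 3.26 ± 0.3299, SE; adjusted p from limma = 0.00758). The immunophilin FKBP4, which helps GR to the nucleus, was at 4.66, 3.24 and 3.07 against 27.7, 39.97 and 40.6 FPKM (log2 fold change 2.99 ± 0.326; adjusted p = 0.00758), and stip1, which passes receptors from HSP70 to HSP90, at 3.52, 0.488 and 1.85 against 17.4, 34.5 and 22.2 FPKM (3.21 ± 0.477; adjusted p = 0.00951). In all 3 every Limnodrilus library was far above every commercial feed library. The commercial feed libraries were close to each other for p23 and FKBP4 but spread for stip1. The most abundant chaperone, hsp90ab1, did not pass (179, 388 and 185 against 470.4, 799 and 566 FPKM; adjusted p = 0.0727).

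Cofactors were called at a share near or below that of all features. Of 27 tested coactivator loci 5 were higher and 0 lower, or 18.5% called. Of all tested features 17.7% were called, 14.0% higher and 3.64% lower. The median log2 fold change of the coactivators was 0.29 (0.24 for all tested features). Of 16 corepressor loci 0 passed in either direction (median -0.09), and the difference between both lists was not tested. The arginine methyltransferases PRMT1 LOC131736384 and CARM1 LOC117402070, which mark histones at receptor targets, were higher, at 14.4, 21.4 and 15.04 against 55.7, 62.2 and 64.3 FPKM and 1.12, 1.47 and 1.702 against 5.36, 5.01 and 6.64 FPKM (log2 fold changes 1.80 ± 0.321 and 1.46 ± 0.286). NCOA4 LOC117418128, a coactivator better known for the turnover of ferritin, rose from 4.74 ± 2.72 to 20.8 ± 4.64 FPKM (SD, n = 3; adjusted p from limma = 0.0216).

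Enzymes that supply or remove ligands had 4 higher (11.8%) and 0 lower of 34 tested loci, below the 14.0% of all tested features that were higher. 11-beta-hydroxysteroid dehydrogenase type 2 LOC117424366, which inactivates cortisol, was at 2.23, 2.37 and 2.98 FPKM with commercial feed and 26.9, 33.4 and 25.7 FPKM with Limnodrilus. The libraries within a diet were close and the diets far apart, with a log2 fold change of 3.07 ± 0.296 (SE; adjusted p from limma = 0.00758). The others were retinol dehydrogenases, which act on the precursor of retinoic acid, among them RDH14 LOC117402920 (2.72, 0.445 and 1.196 against 11.6, 6.87 and 9.79 FPKM; log2 fold change 2.17 ± 0.416) and RDH12 LOC117422035 (0.0865, 0.449 and 1.53 against 3.25, 6.24 and 3.25 FPKM; 1.68 ± 0.417). The most abundant, RDH7 LOC117402827, did not pass (adjusted p = 0.0829).

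Known GR targets gave 8 higher (47.1%) and 2 lower (11.8%) of 17 tested loci, against 14.0% and 3.64% of all tested features, with a median log2 fold change of 1.48 (0.24 for all tested features). FKBP5 LOC131702083, the immunophilin that GR induces and that dampens it, was at 3.78, 6.48 and 8.61 FPKM with commercial feed and 67.6, 183 and 42.6 FPKM with Limnodrilus (log2 fold change 3.55 ± 0.5704; adjusted p = 0.0113), and it also counts among the chaperones. SGK1 LOC117403374, a kinase that regulates ion transport, was at 6.46, 7.55 and 4.81 against 31.6, 60.8 and 22.1 FPKM (2.32 ± 0.429; adjusted p = 0.0152), and PCK1 LOC131698561, the enzyme that commits carbon to gluconeogenesis, at 0.146, 0.07595 and 0 against 15.3, 101 and 14.7 FPKM (4.79 ± 0.697; adjusted p = 0.00934). With so little signal in the commercial feed libraries, PCK1 was tested only because of its Limnodrilus values. Limnodrilus library 2 was the highest of the 6 for FKBP5, SGK1 and PCK1, as it was for both GR loci and for TR alpha LOC117433498. The summed enterocyte list was also highest there, at 1846, 9160.03 and 3672 FPKM in Limnodrilus libraries 1, 2 and 3, and its part in this order was not tested. The most abundant GR target, TSC22D3 LOC117430647, was spread within the commercial feed libraries instead, at 77.8, 419 and 1056 against 219.9, 269 and 191 FPKM (adjusted p = 0.692). The 2 lower loci were both period circadian protein homolog 1, LOC117967971 and LOC117969081.

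FXR targets gave 4 higher and 0 lower of 8 tested loci, where 14.0% of all tested features were higher and 3.64% lower, and all 4 were for the ileal bile acid-binding protein gastrotropin or the ileal bile acid transporter. The 2 tested loci of NR0B2, also a known FXR target, were left out of this count and did not pass (adjusted p from limma = 0.362 and 0.527). Gastrotropin LOC117431101 was at 97.7, 98.5 and 60.8 FPKM with commercial feed and 6192, 1599 and 2754 FPKM with Limnodrilus, and the transporter LOC117405829 at 0.0914, 1.42 and 1.98 against 62.1, 21.3 and 41.9 FPKM (log2 fold changes 5.15 ± 0.544 and 4.30 ± 0.526; adjusted p = 0.00758 for both). Limnodrilus libraries 1, 3 and 2 stood in that order from high to low for both genes and for FXR LOC117419660, but not for the other tested FXR locus, LOC117414949, which was at 6.36, 2.01 and 6.39 FPKM in libraries 1, 2 and 3. Whether these orders are linked was not tested.

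PPAR targets gave 6 higher and 0 lower of 30 tested loci and LXR targets 3 and 0 of 14 (21.4%), shares near the 17.7% called of all tested features. ANGPTL4 LOC117966247, an inhibitor of lipoprotein lipase, was at 0.101, 0.525 and 0.448 FPKM with commercial feed and 6.93, 9.298 and 8.31 FPKM with Limnodrilus, and perilipin-2 LOC117420754, a coat protein of lipid droplets, at 4.33, 5.42 and 4.41 against 69.5, 126 and 39.5 FPKM (log2 fold changes 2.76 ± 0.298 and 3.64 ± 0.451; adjusted p = 0.00758 for both). The commercial feed libraries were uniformly low for both, library 3 included. ANGPTL4 was so low there that it was tested only because of its Limnodrilus values. HADHA LOC117402708, an enzyme of mitochondrial fatty acid oxidation, was also higher, with 6.91 ± 0.599 and 27.2 ± 4.85 FPKM (SD, n = 3; adjusted p = 0.0123). Among LXR targets lpcat3, which puts polyunsaturated chains into membrane phospholipids, was at 0.451, 1.101 and 1.2004 against 8.17, 15.6 and 8.27 FPKM (log2 fold change 2.57 ± 0.362; adjusted p = 0.00903), and the fatty acid desaturase scdb and the cholesterol importer NPC1L1 LOC117969842 also passed (adjusted p = 0.0181 and 0.0435). The most abundant members were the intestinal fatty acid-binding protein LOC117409347, which passed (adjusted p = 0.0340) and is an enterocyte marker, and apolipoprotein Eb LOC117434086, which did not (adjusted p = 0.0898).

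VDR targets split, with 2 higher and 2 lower of 7 tested loci (28.6% each, against 14.0% and 3.64% of all tested features). The calcium-binding protein S100-G, known as calbindin D9k in mammals, fell at both loci: LOC117395457 was at 63.3, 158 and 29.3 FPKM with commercial feed and 2.82, 0.944 and 1.94 FPKM with Limnodrilus (log2 fold change -4.60 ± 0.608; adjusted p = 0.00842), and LOC117968291 at 23.1, 75.1 and 9.62 against 1.78, 0.387 and 0.559 FPKM. The plasma membrane calcium pump ATP2B1 has 4 loci and rose at 2 of them, LOC117419777 being at 0.971, 0.08396 and 0.458 against 5.88, 4.204 and 4.301 FPKM (1.98 ± 0.337; adjusted p = 0.0125). The most abundant of the 4, LOC117414879, was at 51.4, 106 and 12.5 FPKM with commercial feed against 12.02, 9.51 and 7.99 with Limnodrilus and did not pass (-1.98 ± 0.704; adjusted p = 0.0900). Summed over its loci the pump had a log2 fold change of -1.002 (adjusted p = 0.300), so its direction differed between copies. RAR targets gave 1 higher (6.67%) and 0 lower of 15 tested loci, below the share of all tested features, the called one being transglutaminase 2 LOC117421453, with 5.25 ± 1.56 and 17.96 ± 6.72 FPKM (SD, n = 3; adjusted p = 0.0338).

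The list counts moved with single libraries, as did the calls over all features. The higher calls without Limnodrilus library 1, 2 or 3 in turn were 0, 0 and 0 for coactivators, 4, 4 and 4 for chaperones, 1, 1 and 1 for ligand enzymes, 3, 3 and 4 for GR targets, 2, 2 and 3 for PPAR targets, 1, 1 and 2 for LXR targets, 3, 3 and 3 for FXR targets and 0, 0 and 0 for VDR targets, while 2.79%, 2.71% and 2.38% of all tested features were higher. Without commercial feed library 3, where 20.7% of all tested features were higher, there were 10 for PPAR targets, 8 for LXR targets, 8 for ligand enzymes, 7 for GR targets and 6 for chaperones. Without commercial feed libraries 1 and 2, where the share of all tested features was 8.38%, there were 9 for chaperones, 5 for PPAR targets, 3 for FXR targets, 2 for GR targets and 1 for LXR targets.

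**Figure D5:**
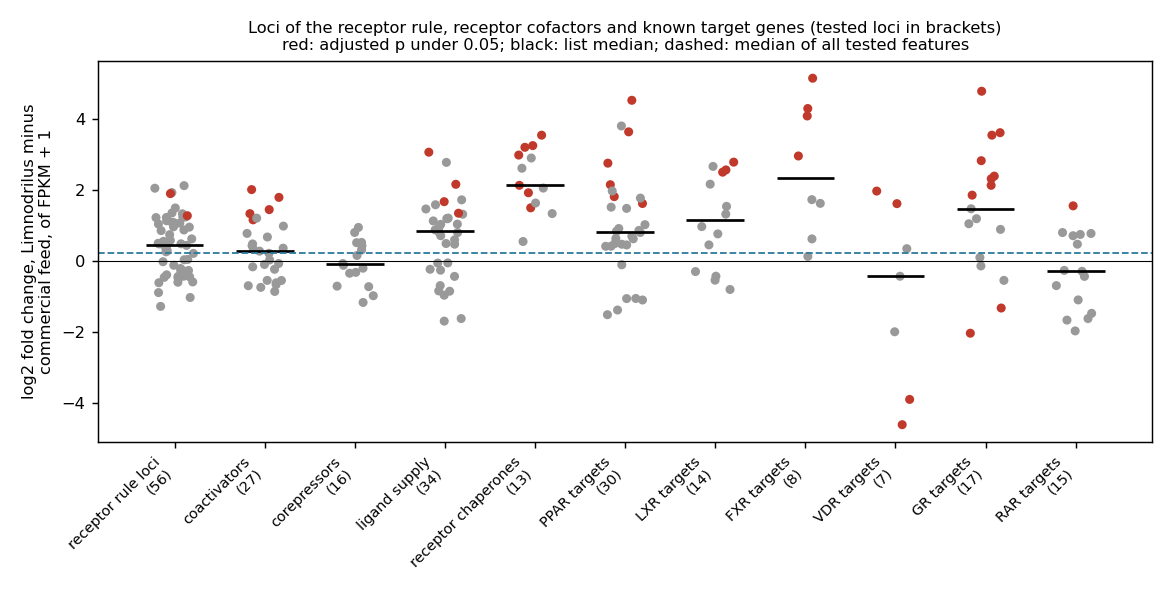
Log2 fold change (Limnodrilus minus commercial feed) of each tested locus of the receptor rule and of the 10 lists of cofactors, ligand enzymes, chaperones and targets, with called loci marked. The receptor loci hold 2 calls among 56 (3.57%) and the chaperone list 7 among 13 (53.8%), all higher. The GR target list holds 8 higher and 2 lower among 17. Of all tested features 17.7% were called. FKBP5 counts in both the chaperone and the GR target list.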

How the data were processed

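The authors deposited FPKM values for 82023 features in 6 libraries, in 1 table that also gives feature lengths. The submitters' processing notes name cutadapt 1.9 and mm10, which is a mouse build, although the sequence names in the table are RefSeq names foreign to it. Which assembly, aligner and counting program were used, whether counting was by strand and how multiply matching reads were handled is not given in the sources used here. Without strand, reads of overlapping genes cannot be told apart. Per the labels' protocols, poly(A) RNA was captured.

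Library totals were recovered from the steps of FPKM times length: 100% of values up to about 20 reads, and 91.4% to 95.7% of all values, were whole multiples of a step within 0.1. Totals were 10.3, 9.95 and 10.49 M reads for commercial feed and 13.9, 19.7 and 17.04 M for Limnodrilus. At 1 kb, 3 reads correspond to 0.286 to 0.302 FPKM for commercial feed and 0.153 to 0.216 FPKM for Limnodrilus. Such limits cover counting error only.

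Values were transformed as log2(FPKM + 1), which understates fold changes of low features. Features averaging 1 FPKM or more (23644) were fitted with limma 3.58.1 in R 4.3.3 (limma-trend, 2-sided, Benjamini-Hochberg adjustment over all of them, threshold 0.05, no covariates). A feature averaging under 1 FPKM in 1 diet entered only through the other diet, which all but fixed its direction. Of the called loci with printed values this held for TR alpha LOC117433498, PCK1, ANGPTL4, RDH12, lpcat3 and ATP2B1 LOC117419777. For S100-G LOC117968291 it held through commercial feed. Among receptor loci that did not pass, it held for RAR beta LOC117394672, estrogen receptor alpha LOC117402328 and, through commercial feed, estrogen receptor beta LOC117419823. With 3 against 3 libraries the smallest p of an exact permutation test is 0.1, so none was used. The fit was tested on simulated data that gave both diets the same spread. How the often wider spread with commercial feed affects the calls was not tested.

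Members and gene lists were chosen with earlier results of these data known, so counts over them are descriptions. Named are the called receptor loci, the most abundant locus of each receptor type, the 5 most abundant loci and, from each list, the 3 called loci of smallest p and the most abundant, of which some are not reported here. The other loci of a type, both period loci, the abundant calcium pump locus and the receptor responder locus were added after their values were seen. Alternatives were a pseudocount of 0.1, no filter, a stricter filter at 5 FPKM, scaling to TPM, by the median of ratios or by quantiles, limma with no trend or robust, a block for the replicate number, omitting libraries and summing loci of 1 product name. A limma-voom fit to the recovered reads was added after seeing the data. The number of unused per-sample columns was 0.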

Additional observations from a re-analysis of the deposited data

How the results depend on the processing

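Over the alternatives 1555 values were recomputed for 88 loci, and 1386 kept their direction and their side of the threshold, 88 no longer passed, 24 newly passed and 57 changed sign. The 2 higher and 0 lower receptor calls were the same loci with a pseudocount of 0.1, TPM scaling, limma without trend, robust limma and limma-voom, the last chosen after seeing the data. No filter also gave 2 higher and 0 lower, of which 1 was shared, as TR alpha LOC117433498 no longer passed (adjusted p from limma = 0.0758). There was 1 higher receptor call with a mean of at least 5 FPKM, which leaves fewer loci, and with loci summed. There were 1 higher and 1 lower under both median-of-ratios and quantile scaling. With 1 library left out the receptor calls ranged from 0 to 11 higher and 0 to 1 lower, those of all features from 563 to 4883 higher and 66 to 1412 lower, and those of the listed pathway genes from 14 to 61. Without commercial feed libraries 1 and 2 there were 0 higher and 7 lower receptor calls, and 1981 higher and 1920 lower of all features. Of all features, a mean of at least 5 FPKM left 1992 higher, no filter gave 556 lower, and median-of-ratios and quantile scaling gave 2235 and 2298 higher with 1492 and 1643 lower (3321 and 861 on the deposited scale). With loci summed 1770 entries were higher and 529 lower, and 22 pathway genes passed. The causes were not tested.

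The replicate number as a block left 1 higher receptor call, 2107 higher and 500 lower features and 33 pathway genes. Deviations from the diet means correlated at 0.187, -0.069 and 0.075 between libraries of the same number, and not every library correlated best with its own number. With 3 libraries per diet these values cannot decide if libraries of the same number share an origin.

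Values that changed sign, as log2 fold changes, were as follows. With 1 library left out they ranged over -1.31 to 0.25 for ER alpha esr1, -0.23 to 1.12 for HNF4 alpha LOC117428354, -0.13 to 1.25 for HNF4 alpha LOC131698607, -1.18 to 0.55 for HNF4 gamma LOC117400360, -1.22 to 0.72 for NR0B1 LOC117406192, -0.26 to 2.70 for NR0B2 LOC117413447, -0.11 to 0.81 for NR1I2 nr1i2, -0.15 to 0.18 for PPAR delta LOC117964477, -0.15 to 0.17 for RAR alpha LOC117433414, -0.26 to 0.36 for RAR beta LOC117399268, -0.73 to 0.066 for RAR gamma LOC117962575, -0.79 to 0.080 for RAR gamma LOC131720857, -1.35 to 0.040 for RXR gamma LOC117402071, -0.98 to 0.57 for RXR gamma LOC117416644, -0.21 to 0.016 for TR beta LOC117394472, -0.91 to 0.27 for VDR LOC117401064 and -1.56 to 0.31 for TSC22D3 LOC117430647. Without commercial feed libraries 1 and 2 they were 0.44 for COUP-TF2 LOC117429169, -0.78 for HNF4 alpha LOC117428354, -0.74 for HNF4 alpha LOC131698607, -0.066 for HNF4 beta LOC117424710, -0.31 for HNF4 gamma hnf4g, -1.69 for NR0B2 LOC117413447, -1.26 for NR0B2 LOC117414218, -0.95 for NR1I2 nr1i2, -0.071 for NR2C1 LOC117419900, 0.43 for NR2C2 LOC131701531, -0.45 for NR5A2 LOC131696709, -0.48 for NR5A2 nr5a2, -0.26 for PPAR alpha LOC117419756, 0.10 for PPAR delta LOC117964477, -0.097 for RAR alpha LOC117433414, 0.64 for RAR gamma LOC117962575, 0.56 for RAR gamma LOC131720857 and -0.28 for THRAP3 LOC131699706. With loci summed they were -0.14 for COUP-TF2 LOC117427794, 0.26 for HNF4 gamma LOC117400360, -0.26 for LXR LOC117434977, 0.33 for NR0B1 LOC117406192, -0.10 for NR2C1 LOC117419900, 0.28 for PPAR delta LOC117964477, -0.33 for RAR alpha LOC117433414, 0.036 for VDR LOC117401064 and -1.002 for ATP2B1 LOC117419777. Under median-of-ratios scaling they were -0.0097 for LXR LOC117434977, -0.17 for RAR alpha LOC117433414 and -0.17 for RAR beta LOC117399268, under quantile scaling -0.14 for NR1I2 nr1i2, -0.24 for RAR alpha LOC117433414 and -0.30 for RAR beta LOC117399268, and under TPM scaling 0.094 for PPAR delta LOC117964477. Depth limits the loci under 1 FPKM, which were not tested.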
